A study of Mus musculus with 3 samples.

Results

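The 51 genes described here are a fixed list of fatty acid and lipid handling genes, taken by gene name from 54532 genes counted in cultured mouse heart cells. They were grouped by role into uptake and binding (7 genes), activation (4), the carnitine shuttle (3), mitochondrial beta-oxidation (11), uncoupling proteins (2), lipid droplet coats (5), triglyceride synthesis (2), lipolysis (4), fatty acid synthesis (5), cholesterol efflux (3) and regulators of the PPAR family (5). All 51 names were found once. A mean of at least 10 counts over the libraries was reached by 46 of them and by 14415 of all genes. The other 5, Cpt1b, Ucp3, Plin5, Ppara and Ppargc1a, are described by their counts alone.

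The cells came from adult Myh6-mCherry mice, in which the promoter of the cardiomyocyte gene Myh6 drives the red reporter mCherry, infarcted at 8 weeks of age and used 5 days after the infarction. MICFs are the cardiac fibroblasts isolated from these hearts, and their library was made without virus after a culture of 4 weeks. The 2 other libraries hold induced cardiomyocytes (iCMs), made from MICFs with lentiviral factors switched on by doxycycline at 1 µg/ml for 4 weeks. These cells were sorted on mCherry, and 5 sorted samples were combined for each cocktail. GMTMS delivers Gata4, Mef2c, Tbx5, Myocd and Sall4, and GMTMM is named for Mesp1 in place of Sall4. The GMTMM-labelled library had 1060 counts of Sall4 and 0 of Mesp1, which goes against its label, so it is called the GMTMM-labelled library throughout. There was 1 library per condition. No difference below has a replicate check, no p-value was computed, and every interval covers counting error only. The cultures were also not equal in other respects: only the iCMs were sorted and virus-treated, and summed counts of 4 Y-linked genes were 0, 1630 and 1926 in MICFs, GMTMS-iCMs and the GMTMM-labelled library.

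Heart muscle draws most of its energy from long-chain fatty acids. These are released from circulating triglyceride by lipoprotein lipase, taken up through proteins such as CD36, carried in the cytosol by fatty acid binding proteins, joined to coenzyme A by acyl-CoA synthetases and passed into mitochondria by the carnitine shuttle for beta-oxidation. Surplus fatty acid is stored as triglyceride in droplets coated by perilipins and released again by lipases. Macrophages, endothelial cells and adipocytes use many of the same genes for their own ends, including cholesterol efflux through ABCA1 and ABCG1.

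Library totals were between 10624118 and 11904484 counts, and a count of 0 allows up to 3 counts, between 0.252 and 0.282 CPM (counts scaled to the library total). Levels are the deposited FPKM, which are per base of the deposited gene length. For some members that length is well above the longest transcript, as for Hadha (8730 against 4017 bases). FPKM of different genes are compared with that limit, and most abundant means the highest FPKM. Differences between libraries are on a log2 scale, log2 (value + 1) of FPKM after quantile normalization over the 3 libraries, and a gene is called higher or lower when the difference is over 1. A fold is the ratio of 2 deposited FPKM values, and its 95% interval is an exact Clopper-Pearson one. The scales are not interchangeable: the added 1 shrinks the difference of low genes, and the quantile step shifts that of abundant genes, as for Lpl and Fabp5 below. Markers of other cell types are given beside the lipid genes because each library is a bulk sample, in which fewer cells of a type and less RNA per cell cannot be told apart. The 8 fibroblast markers summed to 1446, 219 and 2777 FPKM in MICFs, GMTMS-iCMs and the GMTMM-labelled library, and the 12 macrophage markers to 10382, 21408 and 10085 FPKM. In MICFs, labelled as cardiac fibroblasts, the macrophage sum was thus above the fibroblast sum. The 8 cardiomyocyte markers summed to 1.61, 684 and 244 FPKM, in the same order.

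In GMTMS-iCMs, 6 of the 46 members were higher than in MICFs by over 1, Fabp3, Cd36, Acsl4, Ppargc1b, Dgat2 and Acaa2, beside 9.25% of the 14415 genes. Another 7 were lower, G0s2, Plin1, Scd2, Fabp4, Mgll, Lpl and Fasn, beside 9.19% of all genes, and 33 were not past 1. The median difference of the 46 was 0.04, against -0.07 over all genes with at least 10 counts. Without quantile normalization the members split as 8 higher and 5 lower, beside 1531 and 1304 of the 14415 genes. With DESeq2 size factors they split as 9 higher and 6 lower, beside 2179 and 2679 of the 14415. For 9 of the 13 calls the counting interval also lay past 1, and 9 of the 13 held under all 8 scalings tried.

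In the GMTMM-labelled library, 3 members were higher than in MICFs, Fabp3, Dgat1 and Acsl4, beside 6.67% of all genes. Only G0s2 and Abcg1 were lower, beside 3.57% of all genes. The median difference was -0.18, against -0.08 over all genes. With edgeR's TMM or DESeq2 size factors 6 members were higher and 2 lower. Of the 14415 genes, 1787 were higher and 1364 lower with TMM, and 1864 and 1339 with DESeq2 size factors. The 5 calls on the main scale held under all 8 scalings.

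Set against each other, GMTMS-iCMs had 3 members higher than the GMTMM-labelled library, Abca1, Cd36 and Fabp3, beside 6.22% of all genes. G0s2, Dgat1, Plin1 and Fabp4 were lower, beside 9.63% of all genes. The members' median difference was 0.12 and that of all genes 0.06. With CPM of the library totals the split was 2 higher and 6 lower, beside 863 and 2364 of the 14415 genes. These 3 comparisons share libraries, so their values are given side by side and are not independent of each other.

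**Figure D1:**
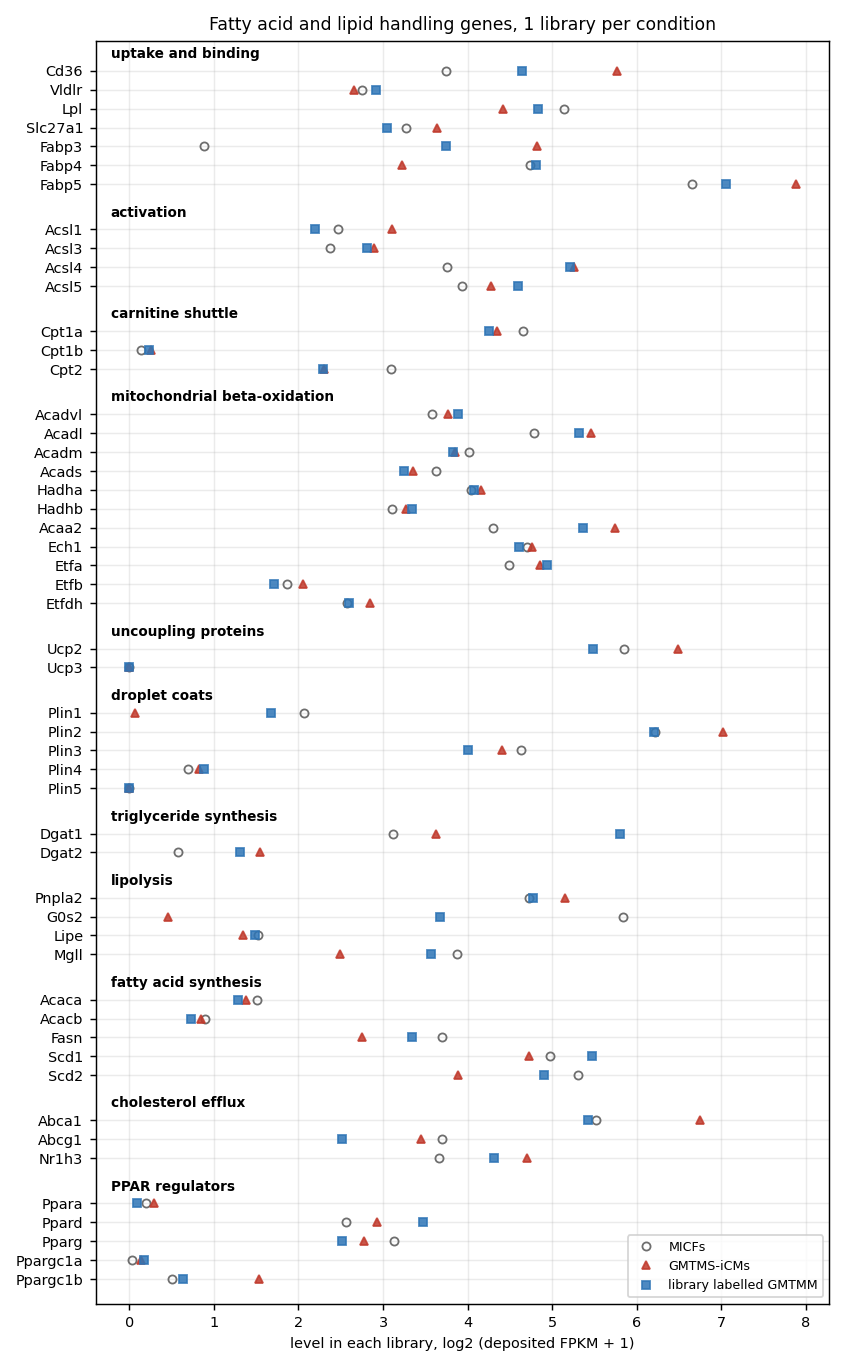
Level of each of the 51 genes in each library, as log2 (deposited FPKM + 1) on the horizontal axis, with genes grouped by role. Open circles are MICFs, red triangles GMTMS-iCMs and blue squares the GMTMM-labelled library, and G0s2, Fabp3 and Dgat1 show the widest gaps between libraries.

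G0s2 encodes a small inhibitor of adipose triglyceride lipase, the enzyme encoded by Pnpla2 that starts the breakdown of stored triglyceride. G0s2 (ENSMUSG00000009633, chr1:193272161-193273217 of GRCm38, minus strand) was counted 707 times in MICFs, 3 times in GMTMS-iCMs and 120 times in the GMTMM-labelled library, which is 56.4, 0.371 and 11.8 FPKM. The 3 libraries were thus well apart, with GMTMS-iCMs at the floor of 3 counts. The difference between GMTMS-iCMs and MICFs was -5.72 (-6.11 to -5.08), the rank 3 from the lowest among 14415 genes, and the level was 152-fold lower (51.8 to 739). The GMTMM-labelled library was 4.78-fold lower than MICFs (3.94 to 5.85), with a difference of -2.59 at rank 12 from the lowest. GMTMS-iCMs were 31.8-fold lower than the GMTMM-labelled library (10.6 to 156). No exon base of G0s2 lies in another gene's exons and none of its 50-base words is shared with another transcript.

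The lipase it inhibits stayed within 1 in every comparison. Pnpla2, the most abundant lipase gene of its role in each library, was counted 1105 times in MICFs, 966 times in GMTMS-iCMs and 927 times in the GMTMM-labelled library, or 25.4, 34.4 and 26.3 FPKM. Its differences from MICFs were 0.04 (-0.08 to 0.16) and -0.29 (-0.42 to -0.17), neither past 1. In FPKM, G0s2 was above Pnpla2 in MICFs and below it in both transduced libraries.

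The later lipases of the same pathway differed from one another. Mgll, which encodes the lipase that cleaves monoglycerides, was counted 996, 217 and 641 times in MICFs, GMTMS-iCMs and the GMTMM-labelled library. It was lower in GMTMS-iCMs than in MICFs, by -1.47 on the log2 scale (-1.66 to -1.29) and 2.96-fold (2.56 to 3.45), under all 8 scalings. Against the GMTMM-labelled library its difference was -0.97 (-1.16 to -0.78), just inside the threshold, and past it in 6 of 8 scalings. Lipe, the gene of hormone-sensitive lipase, was low throughout at 1.88, 1.54 and 1.80 FPKM, with differences of -0.04 and 0.01 from MICFs. It shares 15.6% of its exon bases with an overlapping gene. Summed over the 4 lipolysis genes, the level was 97.4 FPKM in MICFs, against 40.9 in GMTMS-iCMs and 50.7 in the GMTMM-labelled library. This sum counts the inhibitor G0s2 (56.4, 0.371 and 11.8 FPKM) together with the lipases. Pnpla2, the most abundant lipase, was at 25.4, 34.4 and 26.3 FPKM, so the sum does not stand for the lipases alone.

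Sequence before the start is shown for G0s2, the member with the lowest difference between GMTMS-iCMs and MICFs, and for Cd36, a higher member whose promoter holds a receptor half-site. Both stretches are the 250 bases before the start in RefSeq (GRCm38.p6), written 5′ to 3′ on the gene's own strand. G0s2 covers chr1:193273189-193273438 and Cd36 covers chr5:17835897-17836146, both on the minus strand. RefSeq and the deposited gene table place the starts differently: the last bases of the G0s2 stretch lie inside G0s2 as deposited, and the Cd36 stretch lies inside Cd36 as deposited (chr5:17781690-17888801). Capitals mark a match to the nuclear receptor half-site AGGTCA, read on either strand, of which G0s2 has none.
G0s2: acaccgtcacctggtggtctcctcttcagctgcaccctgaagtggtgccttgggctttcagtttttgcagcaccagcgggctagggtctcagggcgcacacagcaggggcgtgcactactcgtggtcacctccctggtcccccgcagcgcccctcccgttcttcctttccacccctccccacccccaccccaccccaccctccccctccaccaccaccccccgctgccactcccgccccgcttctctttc
Cd36: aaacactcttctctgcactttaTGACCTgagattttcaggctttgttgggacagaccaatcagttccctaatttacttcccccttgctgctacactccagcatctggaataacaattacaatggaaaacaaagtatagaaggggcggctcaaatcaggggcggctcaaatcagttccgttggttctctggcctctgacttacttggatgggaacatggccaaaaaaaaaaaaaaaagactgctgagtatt

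PPARs and LXR bind pairs of such half-sites in direct repeat, and SREBP, the regulator of lipid synthesis, binds a different site. Promoters were matched for 40 of the 51 members. AGGTCA was present in 9 of their 50 promoters (18%), those of Acadm, Acadvl, Cd36, Cpt1a, Plin2, Plin5, Pparg and Ucp3, and in 14.0% of all 32851 promoters of the table. A direct repeat of it with 1 base between was in none of the members' promoters and in 0.0335% of all, and one with 4 bases between was in none and in 0.0152%. The SREBP site TCACNCCAC was in 2 of the 50, those of Acsl1 and Ucp2, and in 1.05% of all promoters. Of the 13 members that differed between GMTMS-iCMs and MICFs, Cd36 alone had the half-site, and Ppargc1b, Dgat2, Acaa2, Scd2, Fabp4 and Lpl were not in the promoter table. A match or its absence in 250 bases describes the letters only.

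Uptake and binding was the role with calls in both directions between GMTMS-iCMs and MICFs. Cd36 encodes the fatty acid translocase of muscle, fat, macrophages and capillary endothelium. It was counted 641, 1779 and 1002 times in MICFs, GMTMS-iCMs and the GMTMM-labelled library, or 12.4, 53.4 and 23.9 FPKM. The difference between GMTMS-iCMs and MICFs was 1.73 (1.60 to 1.85), 4.30-fold higher (3.93 to 4.71), and past 1 under all 8 scalings. The GMTMM-labelled library lay between, 0.70 above MICFs (0.56 to 0.83), and GMTMS-iCMs were 1.03 above it (0.92 to 1.14), a call that was lost under 1 of 8 scalings.

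Fabp3, the heart-type fatty acid binding protein, had the highest difference of the list in both comparisons with MICFs. Fabp3 (ENSMUSG00000028773, chr4:130308595-130315463) was counted 10 times in MICFs, 208 times in GMTMS-iCMs and 119 times in the GMTMM-labelled library, or 0.844, 27.2 and 12.4 FPKM. It was 32.2-fold higher in GMTMS-iCMs than in MICFs (17.2 to 68.2), a difference of 3.85, and 14.7-fold higher in the GMTMM-labelled library (7.70 to 31.4), a difference of 2.84. GMTMS-iCMs were 1.01 above the GMTMM-labelled library (0.70 to 1.33), past 1 in 7 of 8 scalings. Its order over the libraries was that of the summed cardiomyocyte markers, over 3 libraries. Of its 50-base words 29.2% are shared with the pseudogene Fabp3-ps1, and 19.6% of its exon bases lie in Gm10570 or Zcchc17, so its counts carry that uncertainty.

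The other binding proteins did not follow Fabp3. Fabp4, the form of adipocytes that capillary endothelium and macrophages also make, was counted 1658, 349 and 1422 times in MICFs, GMTMS-iCMs and the GMTMM-labelled library. It was 3.07-fold lower in GMTMS-iCMs than in MICFs (2.73 to 3.45), a difference of -1.76, and 3.24-fold lower than in the GMTMM-labelled library (2.88 to 3.65). Between MICFs and the GMTMM-labelled library its FPKM were 25.7 and 27.1. Fabp5, the epidermal form that macrophages express, was the most abundant member of all 51 in every library, at 99.9, 235 and 132 FPKM, from 5127, 7793 and 5510 counts. Its ratio of GMTMS-iCMs to MICFs was 2.35 (2.27 to 2.44), while its difference was 0.50, not past 1, and 3 of 8 scalings put it past 1.

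Lipoprotein lipase, encoded by Lpl, went the other way from Cd36. Lpl had 5154, 1980 and 3376 counts and 34.2, 20.3 and 27.6 FPKM in MICFs, GMTMS-iCMs and the GMTMM-labelled library. Its difference between GMTMS-iCMs and MICFs was -1.12 (-1.19 to -1.04), a ratio of 1.68-fold lower (1.60 to 1.77), but it was past 1 under only 5 of the 8 scalings. Vldlr, a lipoprotein receptor that works beside the lipase, and Slc27a1, a fatty acid transport protein, stayed within 1 in every comparison, with levels from 5.31 to 11.5 FPKM. The 7 genes summed to 187, 361 and 237 FPKM in the 3 libraries, with Fabp5 the largest part in each.

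**Figure D2:**
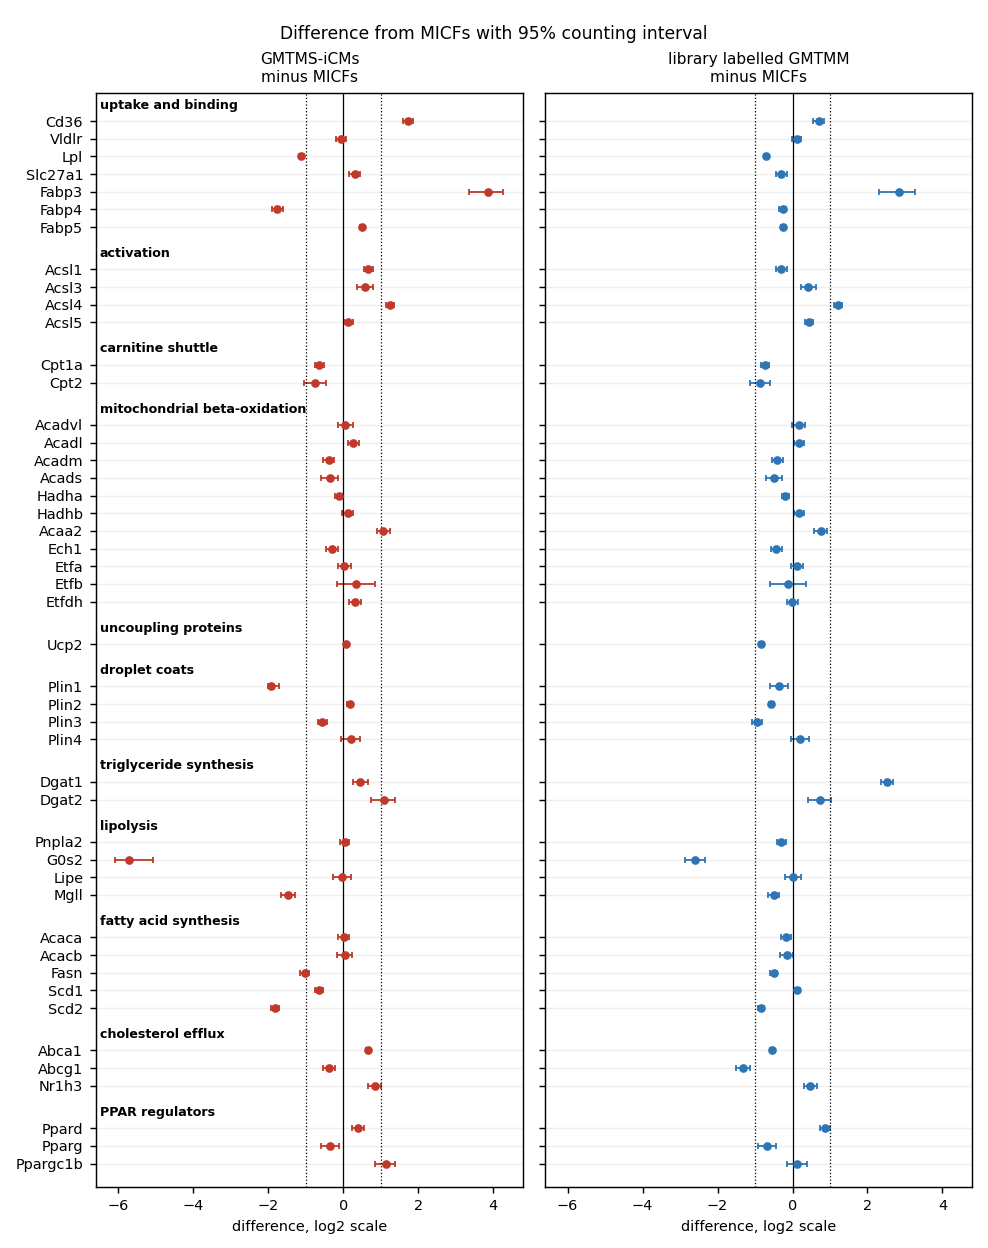
Difference from MICFs on the log2 scale for the 46 members with a mean of at least 10 counts, GMTMS-iCMs on the left and the GMTMM-labelled library on the right. Points are the differences, bars are 95% counting intervals, and dotted lines mark 1 and -1. Most points lie between the dotted lines, with G0s2 farthest left and Fabp3 farthest right in both panels.

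Of the acyl-CoA synthetases, which activate fatty acids, only Acsl4 passed 1. Acsl4, which prefers arachidonic acid, was counted 976, 1865 and 2267 times in MICFs, GMTMS-iCMs and the GMTMM-labelled library, or 12.5, 37.2 and 35.9 FPKM. It was 2.96-fold higher in GMTMS-iCMs (2.74 to 3.20) and 2.86-fold higher in the GMTMM-labelled library (2.65 to 3.09) than in MICFs, and both transduced libraries differed from each other by 0.03 (-0.06 to 0.12). Acsl1, the main heart and liver form, had 681, 740 and 437 counts. It was 0.67 above MICFs in GMTMS-iCMs and 0.29 below them in the GMTMM-labelled library (a difference of -0.29), and the gap between these libraries was 0.96 (0.82 to 1.11). Acsl3 and Acsl5 stayed within 1, at 4.19 to 6.42 FPKM and 14.3 to 23.2 FPKM.

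The carnitine shuttle was not higher in the transduced libraries. Cpt1a encodes the liver form of the rate-limiting transferase and Cpt1b the form of adult heart muscle. Cpt1a had 1495, 776 and 910 counts (24.2, 19.4 and 18.1 FPKM), with differences of -0.64 and -0.73 from MICFs. Cpt1b had 5, 6 and 7 counts, against 776 or more of Cpt1a, so the counts of the muscle form were close to the floor in all libraries. Since 81.4% of the exon bases of Cpt1b also lie in Gm44502, these counts are uncertain. Cpt2, the inner membrane enzyme, had 260, 87 and 109 counts and differences of -0.76 (-1.06 to -0.46) and -0.87 (-1.14 to -0.60). None of these passed 1 on the main scale, and Cpt2 did so under 2 of 8 scalings in each comparison.

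The 11 genes of mitochondrial beta-oxidation differed little. Only Acaa2, the thiolase of the last step, was past 1, with 408 counts in MICFs, against 738 in GMTMS-iCMs and 711 in the GMTMM-labelled library (18.7, 52.4 and 40.2 FPKM). It was 2.80-fold higher in GMTMS-iCMs than in MICFs (2.48 to 3.17), a difference of 1.07 (0.90 to 1.24), and it fell to 0.99 under 1 of 8 scalings. In the GMTMM-labelled library the difference was 0.75, past 1 in 3 of 8 scalings. Acadl, the long-chain dehydrogenase, had the highest FPKM of the 11 in MICFs, at 26.6 from 768 counts. Hadha had more counts there (1937), over a longer deposited gene length. In the transduced libraries Acadl had 43.1 and 38.9 FPKM, with differences of 0.27 and 0.17.

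Apart from Acaa2 and Acadl, the other 9 stayed within 0.50 of MICFs in both transduced libraries. Acads, the short-chain dehydrogenase, had differences of -0.37 and -0.49, and Acadm, the medium-chain one, of -0.39 and -0.41. Acadvl, the very long-chain one, Hadha and Hadhb, the subunits of the trifunctional protein, Ech1, an isomerase, and Etfa, Etfb and Etfdh, which pass electrons to the respiratory chain, ranged from -0.43 to 0.33. The sign of 7 of the 11 differences between GMTMS-iCMs and MICFs changed with the scaling. The whole role summed to 160, 220 and 200 FPKM. Counts of Etfb (44, 34 and 31) and Acadvl are uncertain, since 58.2% and 42.9% of their exon bases lie in other genes.

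Of the uncoupling proteins, carriers of the inner mitochondrial membrane, Ucp2 was abundant and Ucp3, the muscle form, had 0 counts in all 3 libraries. Ucp2, common in macrophages, had 5703, 5783 and 3584 counts (56.7, 89.1 and 43.9 FPKM). Its differences from MICFs were 0.08 and -0.83, and GMTMS-iCMs were 0.91 above the GMTMM-labelled library (0.86 to 0.97), short of 1 on this scale.

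Among the perilipins, the coats of lipid droplets, Plin1 stood apart. Plin1, the coat of adipocyte droplets, was counted 213 times in MICFs, 2 times in GMTMS-iCMs and 119 times in the GMTMM-labelled library (3.18, 0.0463 and 2.19 FPKM). GMTMS-iCMs were 68.7-fold lower than MICFs (18.8 to 571) and 47.3-fold lower than the GMTMM-labelled library (12.8 to 395), with differences of -1.94 and -1.58. The log2 difference is small for such a ratio because the level was low in every library, and over the 8 scalings it ranged from -5.62 to -1.92. Plin5, the coat of oxidative muscle droplets, had 0 counts in every library.

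Plin2, found on droplets of most cells, was the most abundant coat at 73.4, 129 and 72.8 FPKM, from 3710, 4195 and 2985 counts. It was 1.75-fold higher in GMTMS-iCMs than in MICFs (1.68 to 1.83) as deposited, and 0.17 higher on the main scale. Plin3 had differences of -0.56 and -0.94 from MICFs, and Plin4, at 51, 41 and 57 counts, of 0.20 and 0.20. No perilipin was past 1 in the GMTMM-labelled library.

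Both triglyceride-forming acyltransferases had a call against MICFs, though Dgat2 was nearly alike in the transduced libraries. Dgat1 (chr15:76502015-76511953) was counted 338 times in MICFs, 321 times in GMTMS-iCMs and 1948 times in the GMTMM-labelled library, or 7.69, 11.3 and 54.6 FPKM. The GMTMM-labelled library was 7.10-fold higher than MICFs (6.32 to 7.99), a difference of 2.52 (2.37 to 2.67), and GMTMS-iCMs were 4.83-fold lower than it (4.29 to 5.45). Between GMTMS-iCMs and MICFs the difference was 0.45 (0.25 to 0.65). Dgat1 shares no exon base or 50-base word with another gene, and its calls held under all 8 scalings. Dgat2, an unrelated enzyme of the same reaction, had 22, 55 and 53 counts. It was 3.87-fold higher in GMTMS-iCMs than in MICFs (2.32 to 6.67), a difference of 1.07 (0.73 to 1.37) that fell to 0.97 under 1 scaling. In the GMTMM-labelled library it was 2.97-fold higher than in MICFs (1.77 to 5.12), a difference of 0.74, past 1 in 3 of 8 scalings. GMTMS-iCMs were 0.34 above the GMTMM-labelled library (-0.03 to 0.69).

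Fatty acid synthesis was lower in GMTMS-iCMs in 2 of its 5 genes. Scd2, a stearoyl-CoA desaturase of brain and many cultured cells, had 3017, 701 and 1843 counts (38.5, 13.8 and 28.9 FPKM) in MICFs, GMTMS-iCMs and the GMTMM-labelled library. It was 2.78-fold lower in GMTMS-iCMs than in MICFs (2.56 to 3.02), a difference of -1.82. Fasn, fatty acid synthase, had 1891, 581 and 1173 counts (12.0, 5.71 and 9.17 FPKM), with a difference of -1.03 (-1.15 to -0.91) that fell short of 1 under 1 of 8 scalings, and was 2.10-fold lower (1.91 to 2.31). For both genes the GMTMM-labelled library lay between the others.

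Scd1, the other desaturase, had 2125, 1140 and 2455 counts (30.5, 25.4 and 43.5 FPKM) and stayed within 1 in each comparison, at -0.65, 0.12 and -0.77. Acaca and Acacb, the acetyl-CoA carboxylases, had differences between -0.18 and 0.20 in every comparison. Shared sequence bears on these counts: 52.6% of the 50-base words of Acaca are shared with Gm5182, and the desaturases share between 4.01% and 4.66% of theirs with their own family.

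Of the cholesterol efflux genes, Abca1 and Abcg1 had 1 call each, in different comparisons. Abca1, which exports cholesterol to apolipoprotein A1, had 6679, 10212 and 5079 counts (44.8, 106 and 42.0 FPKM). GMTMS-iCMs were 2.53-fold higher than the GMTMM-labelled library (2.44 to 2.62), a difference of 1.21, and 0.66 above MICFs (0.62 to 0.71). Abcg1, its partner for export to HDL, had 703, 374 and 225 counts. It was 2.54-fold lower in the GMTMM-labelled library than in MICFs (2.18 to 2.96), a difference of -1.33, and -0.38 in GMTMS-iCMs. Nr1h3, the LXR alpha receptor that controls both, had 420, 585 and 552 counts, with differences of 0.84 (0.66 to 1.01) and 0.47 (0.30 to 0.64).

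Macrophages also use these genes, so the 12 macrophage markers are set beside them. All 12 had over 3 counts in every library. Their median difference was 0.35 between GMTMS-iCMs and MICFs, -0.62 between the GMTMM-labelled library and MICFs, and 0.99 between the transduced libraries, where 6 of 12 were past 1. For Abca1 the same differences were 0.66, -0.55 and 1.21, and for Ucp2 0.08, -0.83 and 0.91. Other members described here as expressed in macrophages varied. Fabp5 had 0.50, -0.25 and 0.75, and Cd36 had 1.73, 0.70 and 1.03. Fabp4 had -1.76, -0.27 and -1.50, and Pparg had -0.36, -0.68 and 0.32. Nr1h3 (0.84, 0.47 and 0.37) and Abcg1 (-0.38, -1.33 and 0.95) each had the opposite sign to the marker median in 1 of the 3 comparisons. The quantile step shifts the abundant macrophage markers. Lyz2 had a difference of 0.00 between GMTMS-iCMs and MICFs but an FPKM ratio of 1.85. As deposited FPKM, the macrophage markers summed to 206% of MICFs in GMTMS-iCMs and 97.1% in the GMTMM-labelled library. The FPKM ratios to MICFs were 2.37 and 0.937 for Abca1 and 1.57 and 0.774 for Ucp2. For Nr1h3 they were 2.16 and 1.62, and for Abcg1 0.824 and 0.394. The part of the macrophage content in these values was not tested.

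Of the regulators, Ppargc1b alone was past 1. Ppargc1b, a coactivator of mitochondrial genes, had 24, 70 and 26 counts, and was 4.52-fold higher in GMTMS-iCMs than in MICFs (2.81 to 7.51), a difference of 1.13 (0.84 to 1.38), under all 8 scalings. Its relative Ppargc1a, the main such coactivator of adult heart, had 2, 6 and 10 counts. Ppara, the PPAR that governs fatty acid oxidation in heart, had 8, 8 and 3 counts. Both had 10 counts or fewer in each library and are given no call.

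The other receptors were well counted. Ppard, the widely expressed PPAR, had 531, 462 and 886 counts (4.91, 6.62 and 10.1 FPKM) and was the most abundant regulator in both transduced libraries, with differences of 0.40 and 0.87 from MICFs. Pparg, the adipocyte and macrophage PPAR, had 329, 160 and 163 counts (7.74, 5.83 and 4.73 FPKM) and differences of -0.36 and -0.68.

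**Figure D3:**
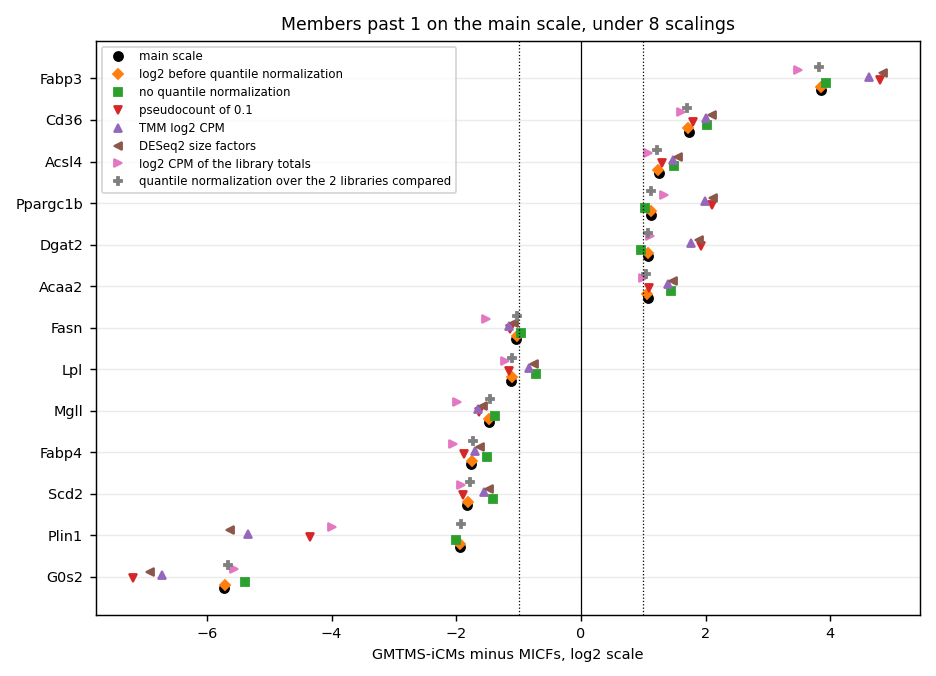
Difference between GMTMS-iCMs and MICFs on the log2 scale for the 13 members past 1, under the main scale and 7 other scalings (symbols), with dotted lines at 1 and -1. No gene crosses 0, and Lpl, Fasn, Dgat2 and Acaa2 have points inside the dotted lines.

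The lower members in GMTMS-iCMs stood beside lower markers of endothelium, fat and fibroblasts. Summed over 8 endothelial markers the level was 448 FPKM in MICFs, against 12.6 in GMTMS-iCMs and 344 in the GMTMM-labelled library, so GMTMS-iCMs kept 2.81% and the GMTMM-labelled library 76.7%. All 8 were lower in GMTMS-iCMs than in MICFs by over 1, as were all 8 fibroblast markers (median -3.00). The 6 adipocyte markers summed to 7.97, 0.276 and 5.09 FPKM, and 4 of the 6, Adipoq, Lep, Retn and Cidec, had 0 counts in GMTMS-iCMs. Adipoq had 79, 0 and 55 counts and Retn 1, 0 and 3, while Lep had 0 in all libraries. Of the 4 adipocyte markers with a mean of at least 10 counts, Adipoq and Cfd were lower by over 1 in GMTMS-iCMs. Cidec (-0.87) and Adrb3 (-0.62) were not past 1.

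As a percentage of MICFs, GMTMS-iCMs kept 0.657% of G0s2, 1.45% of Plin1, 32.6% of Fabp4, 33.8% of Mgll, 36.0% of Scd2, 47.6% of Fasn and 59.5% of Lpl. In this library G0s2 was below the endothelial and adipocyte sums also at the upper end of its counting interval (1.93%). The interval of Plin1, from 2 counts, spanned them (0.175% to 5.32%), and the other 5 were above them. The sums carry no interval, and the adipocyte sum in GMTMS-iCMs came from 1 count of Cfd and 5 of Adrb3. Vwf, the endothelial marker with the largest ratio, was 64.5-fold lower than in MICFs (40.7 to 109). That interval overlaps the one of G0s2 (51.8 to 739). In the GMTMM-labelled library the same genes kept 20.9%, 68.8%, 106%, 79.3%, 75.3%, 76.4% and 80.7%, beside 76.7% of the endothelial and 63.9% of the adipocyte sum. There G0s2 was the one of the 7 below both sums, at 4.78-fold lower than MICFs. Single markers were about as far down, Vwf 4.10-fold (3.66 to 4.61) and Adrb3 6.49-fold (2.56 to 21.1). Both had the largest ratio of their list. Fibroblast markers went to 15.2% in GMTMS-iCMs and 192% in the GMTMM-labelled library. The part of these cell types in the members' differences was not tested.

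**Figure D4:**
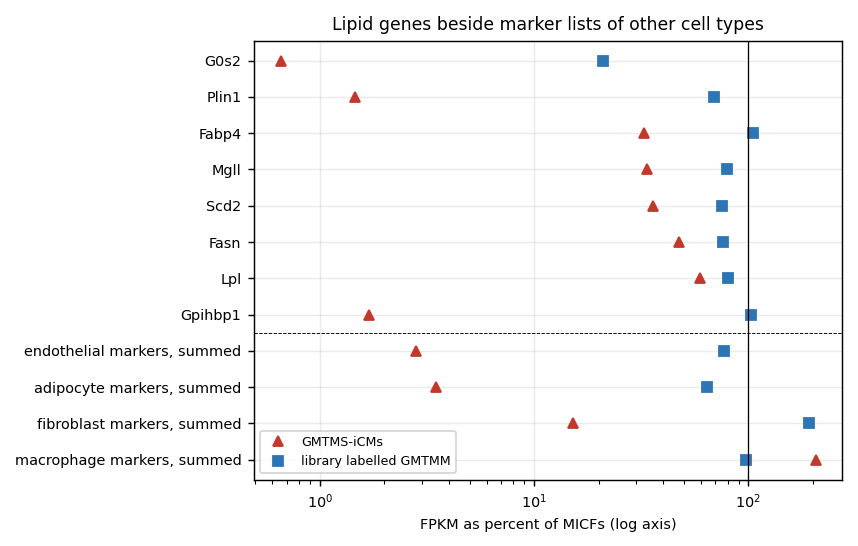
FPKM of 8 lipid genes and of 4 summed marker lists as a percentage of MICFs, on a log axis, in GMTMS-iCMs (red triangles) and the GMTMM-labelled library (blue squares). In GMTMS-iCMs G0s2, Plin1 and Gpihbp1 lie near or below the endothelial and adipocyte sums, and Fabp4, Mgll, Scd2, Fasn and Lpl lie to their right.

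Outside the 51 genes, 156 further genes of lipid metabolism were counted, 128 of them with a mean of at least 10 counts. Between GMTMS-iCMs and MICFs 11 were higher, 6 lower and 111 not past 1, with a median of -0.11, beside 9.25% higher and 9.19% lower of all genes. In the GMTMM-labelled library 6 were higher and 4 lower than in MICFs (median -0.17, beside 6.67% and 3.57%), and between the transduced libraries 6 were higher and 8 lower in GMTMS-iCMs (median 0.11, beside 6.22% and 9.63%). The 13 further genes of mitochondrial beta-oxidation had no call in any comparison, as had the 4 of ketone bodies. Of 11 peroxisomal genes, Abcd2, a fatty acid importer of peroxisomes, was the one past 1, lower in the GMTMM-labelled library than in MICFs. Of 22 genes of cholesterol synthesis, Insig1 and Cyp51 were higher in GMTMS-iCMs than in MICFs, at 1.13 and 1.07, Cyp51 being named after its value was seen.

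The further genes named next were picked as the highest or lowest of their role in these same data. Large differences are therefore built into that choice, and they are no check on what the members showed. Hilpda, a droplet protein that also inhibits adipose triglyceride lipase, was counted 142 times in MICFs, 2832 times in GMTMS-iCMs and 2649 times in the GMTMM-labelled library. It was 30.9-fold higher in GMTMS-iCMs (26.1 to 36.8) and 23.0-fold higher in the GMTMM-labelled library (19.4 to 27.4) than in MICFs. The 2 inhibitors of this lipase thus differed in opposite directions, G0s2 lower and Hilpda higher, under all 8 scalings in both libraries.

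Gpihbp1, which anchors lipoprotein lipase to capillary endothelium, had 1007, 11 and 837 counts, and was 59.1-fold lower in GMTMS-iCMs than in MICFs (32.9 to 119), at 1.69% of MICFs beside 2.81% for the endothelial markers. Lipg, the gene of endothelial lipase, was counted 0 times in MICFs, 103 times in GMTMS-iCMs and 74 times in the GMTMM-labelled library, at least 53.2-fold and at least 30.4-fold higher against the floor of 3 counts. Lipg thus differed in the opposite direction from the endothelial markers in GMTMS-iCMs.

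Among genes of triglyceride synthesis, the lipins Lpin2 and Lpin3 went apart. Lpin2 had 725, 2595 and 1235 counts and was 5.55-fold higher in GMTMS-iCMs than in MICFs (5.10 to 6.03), whereas Lpin3 had 238, 4 and 163 and was 38.4-fold lower (14.8 to 142). In fatty acid synthesis, Elovl6, an elongase, was higher by 1.21 and Fads2, a desaturase, lower by -1.53. Msr1, a macrophage scavenger receptor, had 1357, 5276 and 2059 counts (6.02-fold higher in GMTMS-iCMs, 5.67 to 6.40). Soat2, which esterifies cholesterol, was higher by 1.65 from 17, 72 and 53 counts. Pdk4, which spares glucose when fatty acids are burned, had 68, 229 and 284 counts and was higher by 1.83 and 1.76 in GMTMS-iCMs and the GMTMM-labelled library. Cpt1c, the brain form of the shuttle enzyme, was lower by -1.23 in GMTMS-iCMs.

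Angptl4, a secreted inhibitor of lipoprotein lipase, was chosen after its values were seen. It was counted 500 times in MICFs, 267 times in GMTMS-iCMs and 1774 times in the GMTMM-labelled library, 4.37-fold higher in the latter than in MICFs (3.96 to 4.84). With Dgat1 it is a lipid gene that was higher in the GMTMM-labelled library than in either other library.

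**Figure D5:**
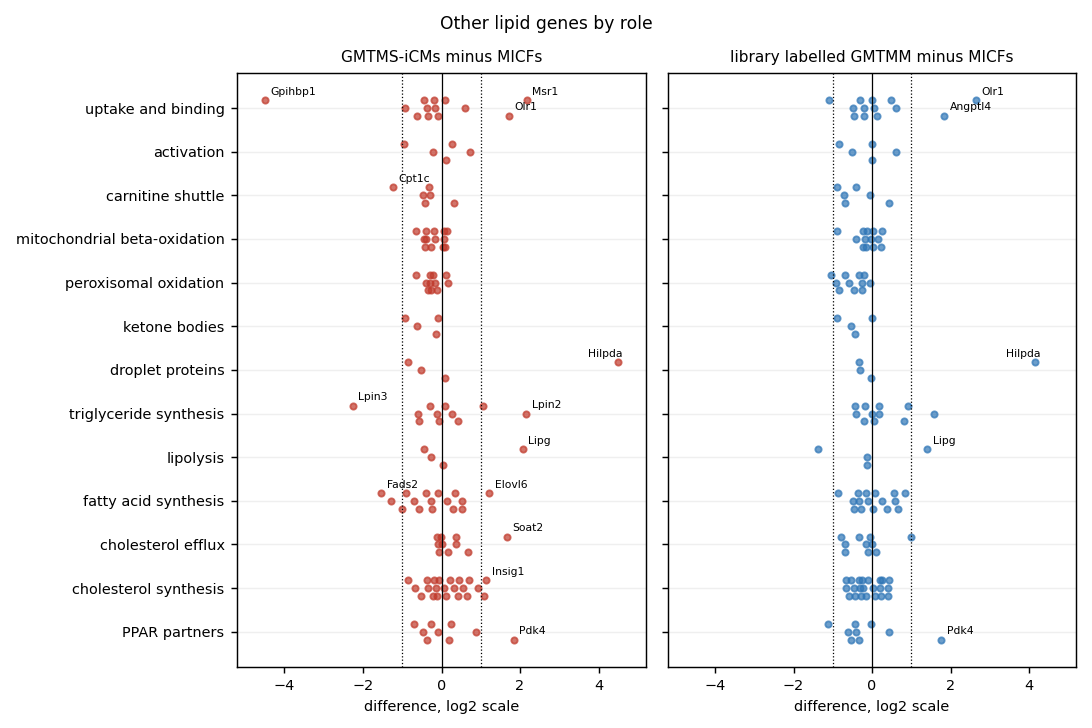
Differences from MICFs on the log2 scale of the 128 further lipid genes by role, GMTMS-iCMs on the left and the GMTMM-labelled library on the right, 1 point per gene with a vertical offset for legibility only and dotted lines at 1 and -1. Hilpda lies farthest right in both panels, and Gpihbp1 farthest left in GMTMS-iCMs. Labels mark genes described in the text and Olr1 (2.65 in the GMTMM-labelled library), which was chosen after its values were seen.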

How the data were processed

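RNA of 3 libraries (MICFs, GMTMS-iCMs and a library labelled GMTMM, 1 per condition) was analysed from tables of 54532 genes. The authors deposited counts per gene without normalization and FPKM. Submitters' notes name HISAT2 2.0.5 and mm9, but gene coordinates are those of GRCm38, and 46 of 51 members equal GENCODE M21. Counting tool, strand and multi-mapped reads are not given in the sources used here. The deposited FPKM were scaled with DESeq2 size factors (1.26, 0.811 and 1.02), not totals. The column of MICFs carries another abbreviation and was matched because the others name the cocktails.

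FPKM were quantile-normalized over the 3 libraries, then transformed as log2 with a pseudocount of 1, after the paper's methods. Clopper-Pearson 95% intervals on counts cover counting error only, and reads are not independent molecules. Genes with a mean under 10 counts were left out of counts of calls. Members, further genes, marker lists and promoter motifs were chosen with earlier results of these data known. Named in full were G0s2, members past 1 in any comparison, the most abundant of each role, and, of the highest and lowest further gene per role, those past 1 between GMTMS-iCMs and MICFs. Abcd2, Cyp51, Angptl4 and Olr1 were named after their values were seen. The 7 other scalings were log2 before quantile normalization, none, a pseudocount of 0.1, TMM log2 CPM (prior count 2), DESeq2 size factors, normalization over the 2 libraries compared and, added after seeing the data, CPM of totals. No filter and a difference over 2 were also tried. Steps were tested on simulated data. Exon overlap and shared 50-base words were taken from GENCODE M21, and promoters from RefSeq. Scalings were run in edgeR 4.0.16 and DESeq2 1.42.0 under R 4.3.3, and the rest in pandas 2.3.3, SciPy 1.17.1, numpy 2.4.6 and matplotlib 3.10.9 under Python 3.11.15.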

Additional observations from a re-analysis of the deposited data

How the results depend on the processing

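No called member changed sign under any alternative. For the members' counts and medians 62 alternative values stayed near the main ones and 16 moved. With a difference over 2, 1 member was higher and 1 lower in GMTMS-iCMs than in MICFs. In the GMTMM-labelled library Fabp3 (2.84) and Dgat1 (2.52) were higher than in MICFs, and 1 member was lower. At this threshold 0 were higher and 2 lower in GMTMS-iCMs than in the GMTMM-labelled library. The counts that follow are for a difference over 1. In the GMTMM-labelled library against MICFs, 6 were higher with TMM and 6 with DESeq2 size factors, not 3. Between the transduced libraries 6 were higher in GMTMS-iCMs with a pseudocount of 0.1, 6 with TMM and 7 with DESeq2 size factors, not 3. The cause was not tested.

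The median difference of members, GMTMS against MICF, was 0.2271 with DESeq2 size factors and -0.2139 with CPM of the totals, against 0.0443. That of all tested genes was -0.0259 with DESeq2 size factors. The median difference of members, GMTMM against MICF, was -0.0223 under TMM, 0.0065 under DESeq2 size factors and 0.0045 without quantile normalization, against -0.1840. The median difference of members, GMTMS against GMTMM, was -0.0549 with CPM of the totals, against 0.1150. CPM of the totals also moved the median of all tested genes, to -0.44, -0.26 and -0.12 from -0.07, -0.08 and 0.06, so members stayed above it for GMTMS-iCMs against MICFs and between the transduced libraries, and below it for the GMTMM-labelled library against MICFs. Over all tested genes, calls for GMTMS-iCMs against MICFs were 1334 higher and 1325 lower on the main scale, 1966 and 2836 with TMM, 2179 and 2679 with DESeq2 size factors, 1949 and 2357 with a pseudocount of 0.1, and 1220 and 3600 with CPM of the totals. For the GMTMM-labelled library against MICFs they were 962 and 514, then 1787 and 1364, 1864 and 1339, 1614 and 1343, and 1148 and 1755 under the same alternatives. Between the transduced libraries they were 897 and 1388, then 1417 and 2611, 1602 and 2560, 1616 and 2190, and 863 and 2364. No paired analysis was possible because 1 library stands for each condition, and for the same reason no replicate could be left out. Counts were too low for a call for Cpt1b, Ppara, Ppargc1a, Ucp3 and Plin5, all at 10 counts or fewer per library. The cause of the low counts was not tested, and 81.4% of the exon bases of Cpt1b also lie in Gm44502.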
